A study of Mus musculus with 8 samples.

Results

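The 41 mouse genes described here build, cross-link and cut the extracellular matrix. They comprise 7 chains of fibrillar and microfibrillar collagens, 9 basement membrane genes, 12 glycoproteins and proteoglycans, 5 genes of collagen processing and cross-linking, and 8 proteases and protease inhibitors. The genes were listed by known function, but with earlier results of these data known, so counts over them are descriptions. Each was read by the probe set that carries its symbol alone and has the highest mean log2 signal. Of the 41, 39 had such a probe set, among 12393 genes on the array, and Fbn1 (fibrillin) and Spp1 (osteopontin) were not analysed here. A filter on low signals passed 33 of the 39, among 8675 genes tested. The 6 that did not pass were Col5a2, Nid1, Postn, Vcan, Loxl1 and Plau, whose signals lay between 1.9 and 77.1 on all arrays.

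TTE3 is a Sertoli cell line from the testis of mice transgenic for a temperature-sensitive SV40 large T antigen, and all cells measured carry that transgene. The cells received 0.2 mM of bisphenol A (BPA), a plastics monomer that binds oestrogen receptors, and their total RNA was hybridised to 8 one-colour Affymetrix Mouse Expression 430A arrays, 2 each at 0, 3, 6 and 12 h. The labels give no arrays of unexposed cells at 3, 6 or 12 h, so BPA and time in culture cannot be told apart. Whether the 2 arrays of each time came from separate cultures is not stated, so p-values reflect only how far these samples differ, which may be technical spread. Deposited signals are linear intensities scaled to 1 trimmed mean (499.96 on every array), and the median signal ranged from 150.9 to 170.0. The 2 arrays of a time correlated at 0.963 to 0.976 over all probe sets that are not controls, on the log2 scale, and arrays of different times at 0.943 to 0.969. These ranges overlap, and the second 6 h and second 12 h arrays (0.969) correlated more closely than the 2 arrays at 6 h (0.963). Of the 15 Sertoli markers measured, 9 passed the filter, while Amh, Fshr, Dhh, Cldn11, Gdnf and Dmrt1 did not and had signals of 0.4 to 75.1. Clu, Wt1 and Gata4 were among the 9 that passed.

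Sertoli cells line the seminiferous tubule and, with the peritubular cells around it, lay down a basement membrane of type IV collagen, laminin, nidogen and perlecan. Matrix genes are transcribed in part under transforming growth factor beta and other signals, and their products are hydroxylated, folded and secreted through the endoplasmic reticulum. Matrix metalloproteases and ADAMTS proteases cut the deposited matrix, and tissue inhibitors of metalloproteases (TIMPs) block them.

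Promoters are shown for Mmp3, Adamts1, Mmp14 and Col3a1, which are among the genes that fell most at 12 h and include both proteases and a fibrillar collagen. These are the 250 bases before the RefSeq start on build GRCm38.p6, printed 5′ to 3′ on the gene's strand. Capitals mark matches, on either strand, to TGANTCA (bound by AP-1), CCAAT (NF-Y, read ATTGG in reverse), TATAAA (the TATA box), GGGCGG (SP1) and GGAATG (TEAD, read CATTCC in reverse). In Mmp14 a CCAAT match and a GGGCGG match share 1 base. Positions are counted back from the start, the base just before it being -1.
Mmp3, chr9:7445572-7445821, + strand: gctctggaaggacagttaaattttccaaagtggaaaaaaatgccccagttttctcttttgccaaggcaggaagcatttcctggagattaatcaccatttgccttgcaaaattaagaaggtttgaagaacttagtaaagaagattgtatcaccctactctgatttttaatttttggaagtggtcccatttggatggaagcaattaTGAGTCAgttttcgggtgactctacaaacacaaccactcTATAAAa
Adamts1, chr16:85803114-85803363, - strand: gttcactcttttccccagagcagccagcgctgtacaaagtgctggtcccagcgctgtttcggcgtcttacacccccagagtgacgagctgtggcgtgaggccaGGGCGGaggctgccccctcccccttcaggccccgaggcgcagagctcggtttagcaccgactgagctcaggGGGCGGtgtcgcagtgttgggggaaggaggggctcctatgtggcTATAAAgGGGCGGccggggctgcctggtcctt
Mmp14, chr14:54431348-54431597, + strand: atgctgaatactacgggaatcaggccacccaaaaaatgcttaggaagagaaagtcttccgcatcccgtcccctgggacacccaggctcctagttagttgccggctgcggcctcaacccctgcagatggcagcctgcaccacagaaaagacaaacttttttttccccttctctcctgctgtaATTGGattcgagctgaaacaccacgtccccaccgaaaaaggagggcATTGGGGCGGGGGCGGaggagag
Col3a1, chr1:45311288-45311537, + strand: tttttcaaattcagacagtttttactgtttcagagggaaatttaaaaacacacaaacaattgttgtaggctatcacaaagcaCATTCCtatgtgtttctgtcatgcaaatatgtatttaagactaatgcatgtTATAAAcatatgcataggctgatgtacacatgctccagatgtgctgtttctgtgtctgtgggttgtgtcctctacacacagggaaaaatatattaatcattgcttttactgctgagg
The Mmp3 window holds TGAGTCA at -46 to -40 and TATAAA at -7 to -2. The Adamts1 window holds TATAAA at -32 to -27 and GGGCGG starting at -147, -76 and -25. Promoter windows of 300 bases (250 before to 50 after the start) were found for 30 of the 41 genes. Some genes have several starts, which makes 36 windows. The AP-1 letters stood in 2 of the 36 windows, those of Col6a1 and Mmp3, against 7.81% of all 32851 windows in the table. TATAAA stood in 8 of 36 against 13.6% of all windows, and CCAAT in 12 of 36 against 37.4%. GGGCGG stood in 25 of 36 against 35.7%, and GGAATG in 5 of 36 against 14.7%. Col4a1 and Col4a2, on chromosome 8, are transcribed in opposite directions from start sites 21 bases apart, and their windows share 78 bases. Each start lies downstream of the other, so the 5′ ends overlap with no gap between them. A match is a description of the letters and says nothing of binding.

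At 12 h of BPA the matrix and its processing genes were mostly lower than at 0 h. Of the 33 tested, 20 fell and none rose in limma's moderated test (adjusted p under 0.05), beside 17.5% of all tested genes that fell and 20.9% that rose. The median change of the 33 was -0.62 on the log2(signal + 7.9) scale, against 0.06 for all genes tested. At least 2-fold falls were found for 9 of the 33, beside 5.22% of all genes. Both 12 h arrays lay below both 0 h arrays for 27 of the 33 and above them for 2, beside 30.9% and 38.6% of all genes. By role, 4 of 6 collagens, 6 of 8 basement membrane genes, 4 of 8 glycoproteins and proteoglycans, 2 of 4 processing genes and 4 of 7 proteases and inhibitors fell. The group medians at 12 h were -0.71, -0.79, -0.23, -0.34 and -0.80 in that order, all as log2 changes. Differences between the groups were not tested. These are bulk signals, so fewer cells of a type and less RNA per cell cannot be told apart.

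**Figure D1:**
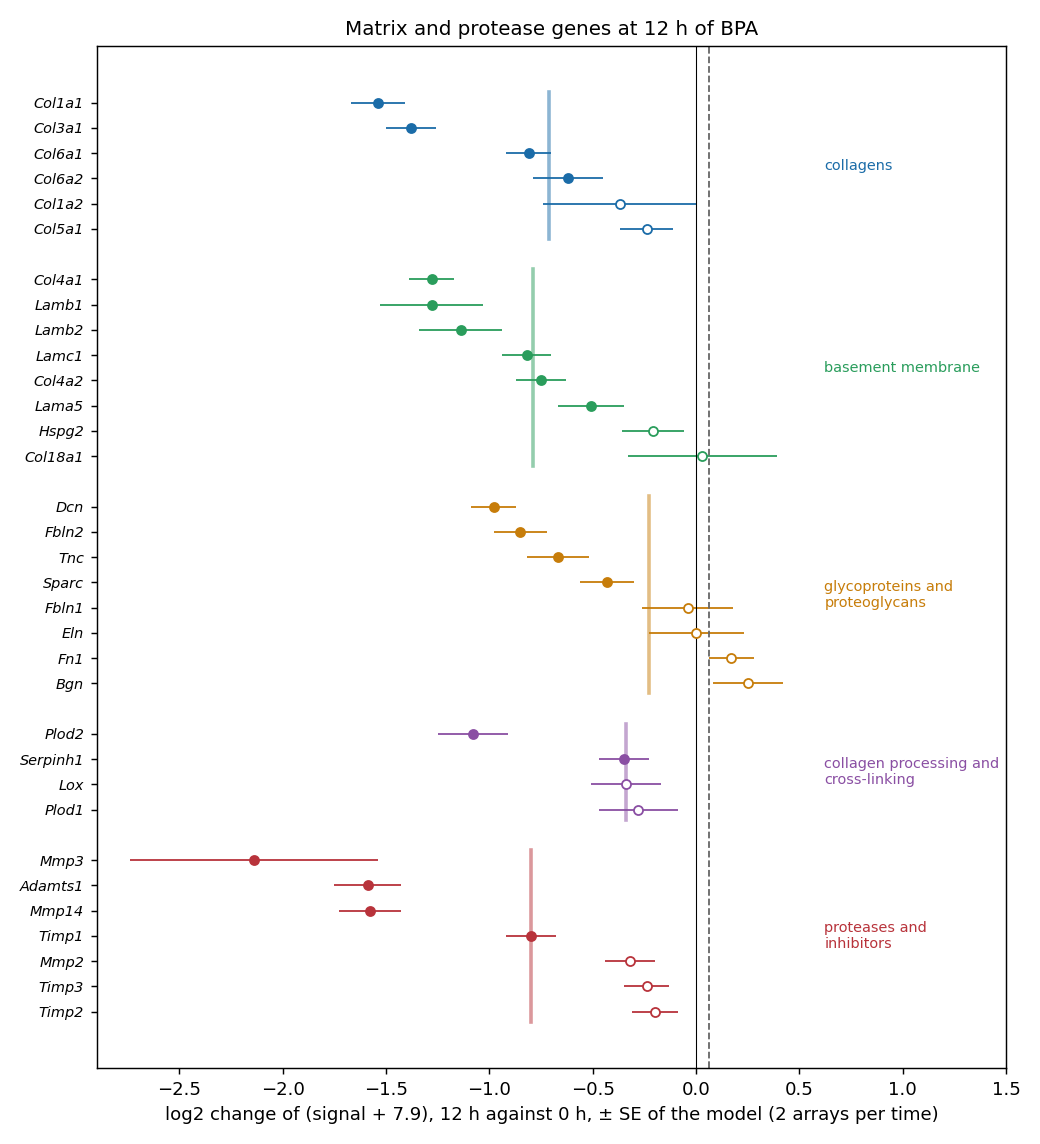
Change of each tested gene at 12 h against 0 h, as the log2 difference of (signal + 7.9) with its standard error, grouped by role. Filled points have an adjusted p under 0.05, thick vertical lines are group medians and the dashed line is the median of all genes tested (0.06); all 20 filled points lie left of 0.

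Earlier times showed fewer calls, and all comparisons with 0 h share the same 2 arrays at 0 h. At 6 h 10 of the 33 fell and 1 rose, beside 9.73% and 16.8% of all genes, and the median change was -0.21 against 0.07 for all genes (log2). At 3 h 2 fell (Dcn, Timp1) and 2 rose (Adamts1, Timp3), beside 3.53% and 8.55% of all genes, and the median was 0.06 for both the 33 and all genes. The 10 that fell at 6 h were 2 collagens, 4 basement membrane genes, 1 proteoglycan, 1 processing gene and 2 proteases or inhibitors, and all 10 were also lower at 12 h than at 0 h. Among the 20 that fell by 12 h, the call first appeared at 3 h for 2 genes, at 6 h for 8 and at 12 h for 10. Of the 20 that fell, 19 had their lowest change at 12 h, the exception being Timp1. The moderated F test over the 4 times called 20 of the 33, beside 35.8% of all genes. They were not the same 20 genes. Lama5 (adjusted p = 0.102) and Serpinh1 (0.105), which fell at 12 h, were not called by the F test. Timp2 (0.0465) and Timp3 (0.000176), not called at 12 h against 0 h, were. The balance of rises and falls at the early times depends on how the arrays are scaled. With arrays scaled to the same median, the median change of all genes at 3 h moved to -0.07, with 643 lower and 465 higher in place of 306 and 742. The same scaling gave 1188 lower and 1057 higher at 6 h in place of 844 and 1455. The 33 then had 4 lower and 2 higher at 3 h, 13 lower and 1 higher at 6 h, and 20 lower at 12 h.

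Between later times, 2 genes were lower at 6 h than at 3 h (Col1a1 and Adamts1) and none was higher, beside 0.553% and 0.565% of all genes. From the comparison of 12 h with 6 h came 8 lower and 0 higher, beside 3.85% and 0.922%, with a median change of -0.30 against -0.02 for all genes (log2). Between 12 h and 3 h 22 were lower and 0 higher, beside 12.4% and 9.52%, with a median of -0.52 against -0.01. Of the 20 that fell against 0 h, 17 were also lower than at 3 h and 7 lower than at 6 h. Without limma's intensity trend, 7 calls against 0 h were lost, those of Dcn at 3 h (adjusted p = 0.0724), of Col3a1, Lamb2 and Col4a2 at 6 h (0.0588, 0.0644 and 0.102) and of Col6a2, Sparc and Serpinh1 at 12 h (0.0553, 0.0761 and 0.0881). Without the filter, 2 were lost, those of Col4a2 at 6 h (0.0517) and Sparc at 12 h (0.0588). The count of 22 dropped to 10 without the first 3 h array, 14 without the second 3 h array and 13 without the first 12 h array.

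**Figure D2:**
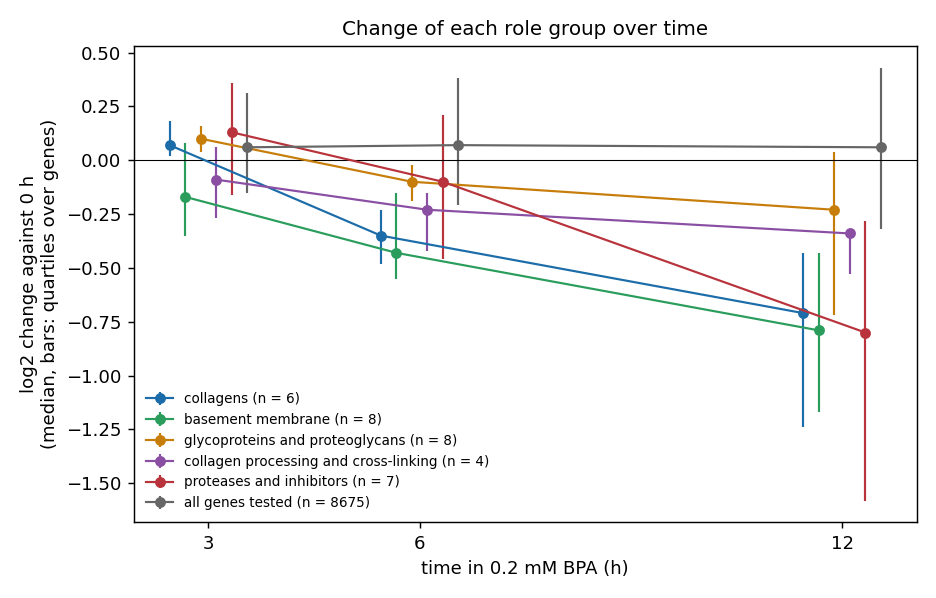
Median log2 change of (signal + 7.9) against 0 h at 3, 6 and 12 h for each role group and for all genes tested, with quartiles over genes as bars and points set slightly apart around each time. At 12 h the medians of the collagens (-0.71), basement membrane genes (-0.79) and proteases with inhibitors (-0.80) lie lowest, and that of all genes stays at 0.06.

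Among the fibrillar collagens, the type I alpha 1 and type III chains fell. Col1a1 encodes the main chain of type I collagen, the tensile fibre of most tissues, and its signals were 1037 and 914 at 0 h, 1068 and 1001 at 3 h, 572 and 546.5 at 6 h, and 315 and 344 at 12 h. The 0 h and 3 h arrays were alike, the 6 h arrays were lower and the 12 h arrays lower again, with no overlap between 12 h and any earlier time. Col1a1 fell by 0.79 ± 0.13 at 6 h (adjusted p = 0.000621) and by 1.54 ± 0.13 at 12 h (adjusted p = 1.6e-06), log2 changes ± SE with n = 2 arrays per time. The other Col1a1 probe set had signals of 325.3 and 456.1 at 6 h against 312.7 and 347.0 at 0 h, a log2 change of 0.22 ± 0.21 (adjusted p = 0.493), and the mean of both probe sets gave -0.28 at 6 h (adjusted p = 0.157), so the 6 h call rested on the brighter one. Col3a1, the type III chain that forms finer fibrils with type I, had signals of 4285 and 5514 at 0 h, 5304 and 4824 at 3 h, 3382 and 3519.7 at 6 h, and 1894 and 1835 at 12 h. Both 12 h arrays lay below all earlier arrays. The log2 change was -0.49 ± 0.12 at 6 h (adjusted p = 0.0103) and -1.38 ± 0.12 at 12 h (adjusted p = 2.9e-06).

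The type I alpha 2 chain, which joins the alpha 1 chain in the type I trimer, was read at a low level. Its signals were 74.2 and 93.8 at 0 h, 95.3 and 101 at 3 h, 82.3 and 43.5 at 6 h, and 68.1 and 57.8 at 12 h, and the log2 change at 12 h was -0.37 ± 0.37 (adjusted p = 0.471). Its lower signal at 6 h and both at 12 h lay under the 0 h arrays, but the standard error was as large as the change. Col5a1, a type V chain that nucleates fibrils, had signals of 572 and 556 at 0 h, 646 and 669.9 at 3 h, 588 and 560.5 at 6 h, and 465 and 488 at 12 h. The 12 h arrays were the lowest, and the change passed the test against 3 h (-0.46 ± 0.13 log2, adjusted p = 0.0202) and not against 0 h (-0.24 ± 0.13 log2, adjusted p = 0.155). Col5a2, the partner chain, was below the filter, with signals of 26.2 and 30.9 at 0 h, 12.4 and 38.7 at 3 h, 5.6 and 47.2 at 6 h, and 4.6 and 35.4 at 12 h.

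The alpha 1 and alpha 2 chains of type VI collagen, the beaded microfibril that borders basement membranes, fell at 12 h. Col6a1 signals were 1968.5 and 2067 at 0 h, 1997 and 2001 at 3 h, 1736 and 1600.1 at 6 h, and 1220.5 and 1083 at 12 h, a log2 change of -0.81 ± 0.11 at 12 h (adjusted p = 9.38e-05). Col6a2 signals were 1244.5 and 1330.3 at 0 h, 1368 and 1227 at 3 h, 1341 and 915 at 6 h, and 927 and 748 at 12 h, a log2 change of -0.62 ± 0.17 (adjusted p = 0.00979). The 12 h arrays of Col6a1 stood clear of all others, whereas in Col6a2 the second 6 h array overlapped them. The alpha 3 chain, Col6a3, read from the list of other matrix genes, did not pass the test, with signals of 89.0 and 72.6 at 12 h and 57.2 and 62.1 at 0 h and a log2 change of 0.39 ± 0.32 (adjusted p = 0.383). The Col6a2 call was lost without the second 0 h array (adjusted p = 0.0742), without the second 12 h array (0.0907) and without limma's intensity trend (0.0553). At 6 h the Col3a1 call was lost without the second 0 h array (adjusted p = 0.159).

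In the basement membrane, Col4a1, Col4a2, Lamb1, Lamb2, Lamc1 and Lama5 fell at 12 h. Col4a1 and Col4a2 encode the network-forming chains that share 1 trimer. The Col4a1 signals were 3766 and 3476 at 0 h, 3281 and 3456 at 3 h, 2548 and 2436.5 at 6 h, and 1578 and 1404 at 12 h. Each later time from 6 h lay below the earlier ones with no overlap, and Col4a1 fell by 0.54 ± 0.11 at 6 h (adjusted p = 0.00269) and by 1.28 ± 0.11 at 12 h (adjusted p = 1.81e-06) on the log2 scale. The Col4a2 signals were 1665 and 1461 at 0 h, 1604 and 1676 at 3 h, 1216 and 1255 at 6 h, and 966 and 878.5 at 12 h. They also stood apart at 6 h and 12 h, with log2 changes of -0.33 ± 0.12 (adjusted p = 0.0484) and -0.75 ± 0.12 (adjusted p = 0.000218). The 6 h call of Col4a2 was lost under 12 of 18 alternative settings, among them leaving out the first 0 h array (adjusted p = 0.319). The 12 h call was lost under none of the 18. Of the other type IV chains, from the list of other matrix genes, Col4a5 fell at 12 h (-0.64 ± 0.18 log2, adjusted p = 0.011) and Col4a6 did not pass the test (-0.32 ± 0.14 log2, adjusted p = 0.078).

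Laminins are trimers of an alpha, a beta and a gamma chain. Lamb1 (beta 1) had signals of 220.0 and 262 at 0 h, 209.7 and 152 at 3 h, 135.5 and 179 at 6 h, and 85.9 and 103 at 12 h, and its log2 change was -1.28 ± 0.25 at 12 h (adjusted p = 0.00109). Lamb2 (beta 2) had signals of 568 and 431.5 at 0 h, 415 and 343 at 3 h, 347 and 266 at 6 h, and 250.2 and 195 at 12 h, with log2 changes of -0.69 ± 0.20 at 6 h (adjusted p = 0.0213) and -1.14 ± 0.20 at 12 h (adjusted p = 0.000594). Lamc1 (gamma 1), the gamma chain of most laminins, had signals of 834.5 and 876 at 0 h, 687 and 665 at 3 h, 620.2 and 566 at 6 h, and 488 and 472 at 12 h. Its arrays were lower at each later time with no overlap, and the log2 change was -0.52 ± 0.12 at 6 h (adjusted p = 0.00731) and -0.82 ± 0.12 at 12 h (adjusted p = 0.000191). In Lamb1 and Lamb2 the 12 h arrays lay below all others as well, while the 3 h and 6 h arrays overlapped in both. Lama5 (alpha 5) had signals of 276 and 269.5 at 12 h and 384 and 399 at 0 h, a log2 change of -0.51 ± 0.16 (adjusted p = 0.0222). Lamb3 (beta 3), from the list of other matrix genes, did not pass the test at 12 h (-0.22 ± 0.37 log2, adjusted p = 0.689). The Lama5 call was lost when any of the 4 arrays at 0 and 12 h was left out (adjusted p = 0.0659 to 0.112), and with the mean of all probe sets (0.187).

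Perlecan and collagen XVIII did not pass the test, and nidogen was not tested. Hspg2 (perlecan, a heparan sulphate proteoglycan) had a log2 change of -0.21 ± 0.15 at 12 h (adjusted p = 0.276). Col18a1, the source of endostatin, had 0.03 ± 0.36 (adjusted p = 0.962). Nid1, which bridges laminin and collagen IV, was below the filter, with signals of 20.6 and 30 at 0 h, 38.2 and 26.8 at 3 h, 3.5 and 18.6 at 6 h, and 3.9 and 16.9 at 12 h. For Lamb2 the 6 h call was lost without the first 0 h array (adjusted p = 0.209) or the second 6 h array (0.134), and for Lamc1 without the second 0 h array (0.0675).

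Among the glycoproteins and proteoglycans, 4 of 8 tested fell and the other 4 did not pass the test. Dcn (decorin), a small leucine-rich proteoglycan that coats collagen fibrils, had signals of 8440.4 and 8423 at 0 h, 5941 and 6084 at 3 h, 5306 and 4892 at 6 h, and 3908.5 and 4671 at 12 h. Every exposed array lay below both 0 h arrays. Dcn fell by 0.49 ± 0.11 at 3 h (adjusted p = 0.0124), 0.73 ± 0.11 at 6 h (adjusted p = 0.000418) and 0.98 ± 0.11 at 12 h (adjusted p = 1.96e-05) on the log2 scale. The 3 h call of Dcn was lost under 5 of 18 settings, with adjusted p up to 0.0947.

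Fbln2 (fibulin 2), a linker of basement membrane and elastic fibre proteins, had signals of 1508 and 1484 at 0 h, 1685 and 1454 at 3 h, 1571 and 1291 at 6 h, and 810.5 and 843 at 12 h. Its fall came at 12 h alone among the comparisons with 0 h, with a log2 change of -0.85 ± 0.13 (adjusted p = 0.000174). Tnc (tenascin C), an anti-adhesive matrix protein, had signals of 577 and 507 at 0 h, 578 and 483 at 3 h, 453 and 548 at 6 h, and 327.5 and 346 at 12 h and a log2 change of -0.67 ± 0.15 at 12 h (adjusted p = 0.00377). In both, the 12 h arrays lay below all earlier ones. Sparc (osteonectin), a collagen-binding matricellular protein, had signals of 10414 and 10906 at 0 h, 11375.5 and 11315 at 3 h, 9998 and 9012 at 6 h, and 6908 and 9096 at 12 h. The second 12 h array overlapped the 6 h range, and the log2 change at 12 h was -0.43 ± 0.13 (adjusted p = 0.0187). That call was lost without either 0 h array (adjusted p = 0.0656 and 0.112) and without the first 12 h array (0.218).

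Fn1 (fibronectin), the adhesive glycoprotein on which other matrix assembles, did not pass the test against 0 h at any time. Its signals were 6509.6 and 7092 at 0 h, 7398 and 7719.6 at 3 h, 7488 and 8124 at 6 h, and 8071 and 7245 at 12 h, with a log2 change of 0.17 ± 0.11 at 12 h (adjusted p = 0.239). The other, dimmer Fn1 probe set had signals of 101.3 and 179.7 at 12 h against 180.0 and 228.7 at 0 h. Tested singly, its log2 change was -0.56 ± 0.26 at 12 h (adjusted p = 0.116), so the 2 probe sets differed in direction and neither was called. Bgn (biglycan, a relative of decorin) had a log2 change of 0.25 ± 0.17 (adjusted p = 0.267), Fbln1 (fibulin 1) -0.04 ± 0.22 (adjusted p = 0.91) and Eln (elastin) 0.00 ± 0.23 (adjusted p = 0.999). The standard errors leave room for a change in either direction for Fbln1 and Eln. Postn (periostin) and Vcan (versican) were below the filter, with signals of 5.2 to 37.4 and of 1.9 to 62.3.

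**Figure D3:**
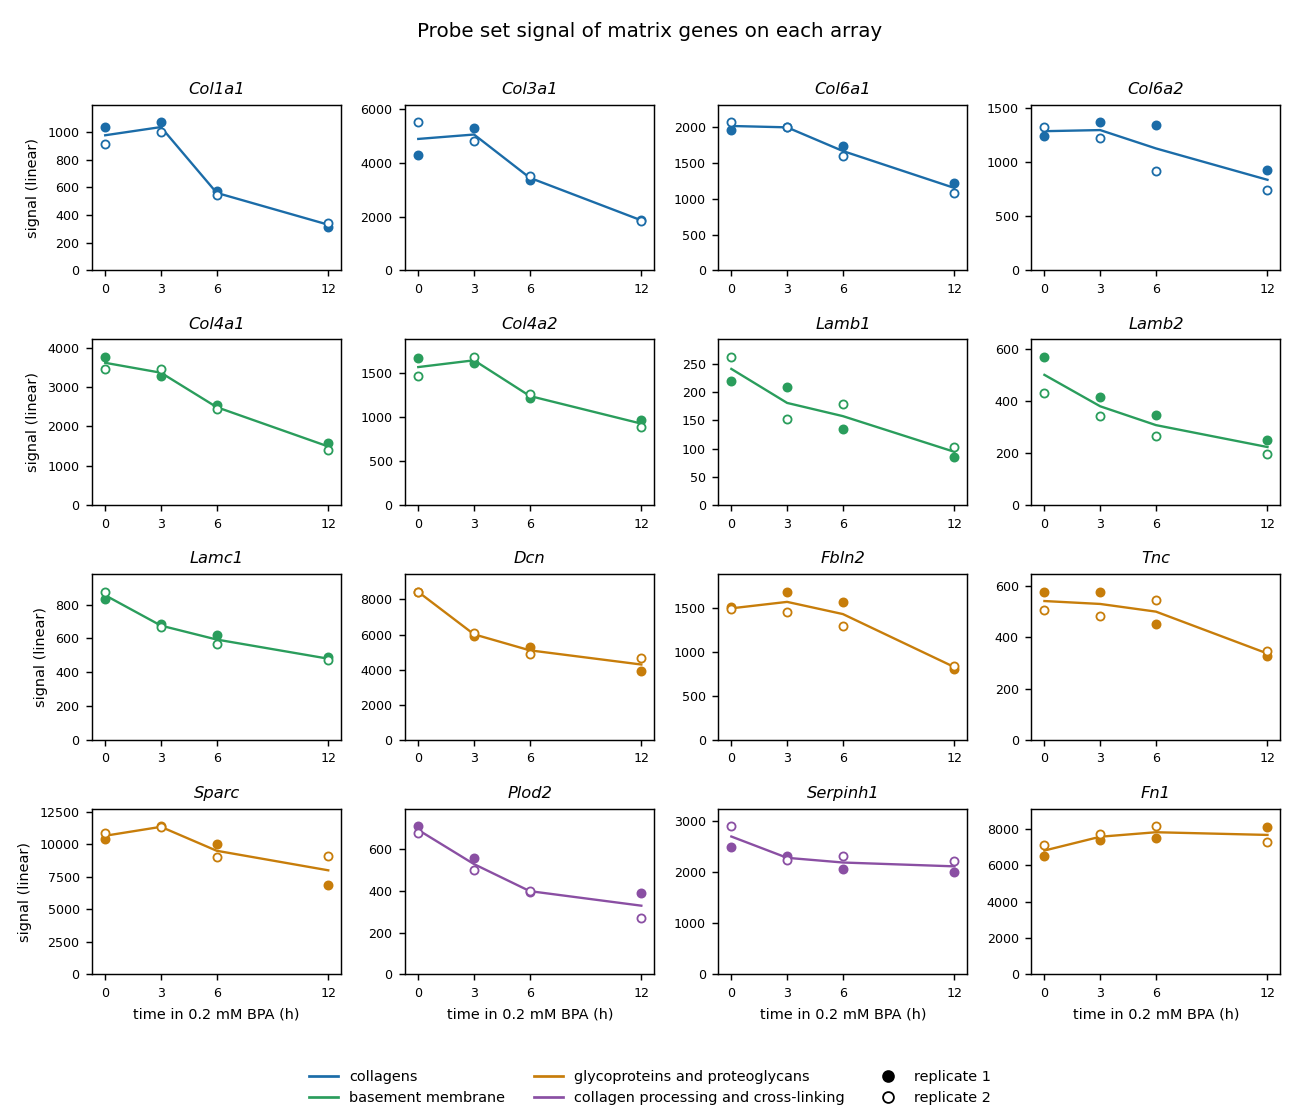
Linear probe set signal of 16 matrix and processing genes against time in 0.2 mM BPA (h), with 1 point per array and a line through the means of the 2 arrays. In Col1a1, Col3a1, Col6a1, Col4a1, Col4a2, Lamc1 and Fbln2 the 12 h points lie below every earlier point, while those of Fn1 lie within the earlier range.

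Of the processing genes, the lysyl hydroxylase Plod2 and the collagen chaperone Serpinh1 fell. Plod2, which hydroxylates lysines in collagen telopeptides ahead of cross-linking, had signals of 707 and 673 at 0 h, 556 and 498 at 3 h, 395 and 400.1 at 6 h, and 389 and 268 at 12 h. All exposed arrays lay below the 0 h arrays, and the log2 change was -0.78 ± 0.17 at 6 h (adjusted p = 0.00429) and -1.08 ± 0.17 at 12 h (adjusted p = 0.00026). Serpinh1 (HSP47), which binds procollagen in the endoplasmic reticulum, had signals of 2491 and 2884 at 0 h, 2308 and 2237 at 3 h, 2051 and 2311 at 6 h, and 2001 and 2211 at 12 h. Its 12 h arrays lay under the 0 h arrays but overlapped those at 6 h, with a log2 change of -0.35 ± 0.12 at 12 h (adjusted p = 0.0306), and the call was lost without the second 0 h array (adjusted p = 0.256) or the first 12 h array (0.175). Lox (lysyl oxidase, the cross-linking enzyme) and Plod1 (lysyl hydroxylase 1) had log2 changes of -0.34 ± 0.17 (adjusted p = 0.14) and -0.28 ± 0.19 (adjusted p = 0.285) at 12 h. Loxl1, a relative of Lox, was below the filter with signals of 5.5 to 77.1.

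Among the proteases, Adamts1 rose at 3 h and fell by 12 h. Adamts1 encodes a secreted protease that cuts versican and aggrecan, and its signals were 667 and 664 at 0 h, 1939.9 and 1862 at 3 h, 846 and 832 at 6 h, and 179.6 and 261 at 12 h. Both 3 h arrays were the highest, the 6 h arrays were above those at 0 h without overlap, and the 12 h arrays were the lowest. The rise at 3 h was a log2 change of 1.5 ± 0.16 (adjusted p = 2.96e-05), and the gene fell by 1.59 ± 0.16 at 12 h against 0 h (adjusted p = 5.83e-06). At 6 h the change against 0 h was 0.33 ± 0.16 (adjusted p = 0.144). Set against 3 h, the 12 h signal was 8.51-fold lower, a log2 change of -3.09 ± 0.16 (adjusted p = 9.47e-08). These contrasts share arrays and are not independent of each other.

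The membrane protease Mmp14 (MT1-MMP), which cuts fibrillar collagen and activates the gelatinase MMP2, fell at 6 and 12 h. Its signals were 812 and 913 at 0 h, 677 and 658 at 3 h, 521 and 536 at 6 h, and 324 and 246 at 12 h. Each later time lay below the one before with no overlap, and the log2 change was -0.70 ± 0.15 at 6 h (adjusted p = 0.00424) and -1.58 ± 0.15 at 12 h (adjusted p = 4.61e-06). The 6 h call was lost without the second 0 h array (adjusted p = 0.0542). Mmp2 (gelatinase A) had signals of 1132 and 1092 at 0 h, 1193 and 1111 at 3 h, 961 and 934 at 6 h, and 815.5 and 968 at 12 h, and its log2 change of -0.32 ± 0.12 at 12 h missed the threshold (adjusted p = 0.053). Mmp3 (stromelysin 1) was read at a low level, with signals of 93.4 and 71.6 at 0 h, 89.7 and 90.7 at 3 h, 111 and 51.5 at 6 h, and 2.0 and 33.9 at 12 h. Both 12 h arrays were under all others, and the log2 change was -2.14 ± 0.60 (adjusted p = 0.0129). Left-out arrays moved it between -3.18 and -1.10, 4 times the offset gave -1.28, and the call was lost without the first 0 h array (adjusted p = 0.0907) or the first 12 h array (0.111). Plau (urokinase) was below the filter, with signals of 9.8 to 63.8.

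Of the 3 inhibitors, Timp1 fell at every exposed time and Timp3 rose at 3 and 6 h. Timp1 had signals of 1297 and 1256 at 0 h, 766 and 668 at 3 h, 683 and 629.8 at 6 h, and 759 and 701 at 12 h. All exposed arrays lay below the 0 h arrays, and Timp1 fell by 0.83 ± 0.12 at 3 h (adjusted p = 0.000762), 0.95 ± 0.12 at 6 h (adjusted p = 0.000129) and 0.80 ± 0.12 at 12 h (adjusted p = 0.000244) on the log2 scale. Timp3, the inhibitor that binds to matrix and also blocks ADAMTS proteases, had signals of 2426 and 2604.5 at 0 h, 3814 and 3477 at 3 h, 3642 and 3402 at 6 h, and 2145 and 2120.2 at 12 h. It rose at 3 h (0.53 ± 0.11 log2, adjusted p = 0.00518) and 6 h (0.48 ± 0.11 log2, adjusted p = 0.00438), where its arrays lay above all others. At 12 h it was lower than at 6 h (-0.72 ± 0.11 log2, adjusted p = 0.00226) and did not differ from 0 h past the threshold (-0.24 ± 0.11 log2, adjusted p = 0.0957). The Timp3 call was lost without the first 0 h array at both 3 h (adjusted p = 0.0735) and 6 h (0.0561), and at 3 h also without the first 3 h array (0.0708). Timp2, which both inhibits MMP2 and takes part in its activation by Mmp14, had signals of 11316 and 12383 at 0 h, 13404 and 13632 at 3 h, 13134 and 12172 at 6 h, and 10689.8 and 9906 at 12 h and a log2 change of -0.20 ± 0.11 at 12 h (adjusted p = 0.157).

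**Figure D4:**
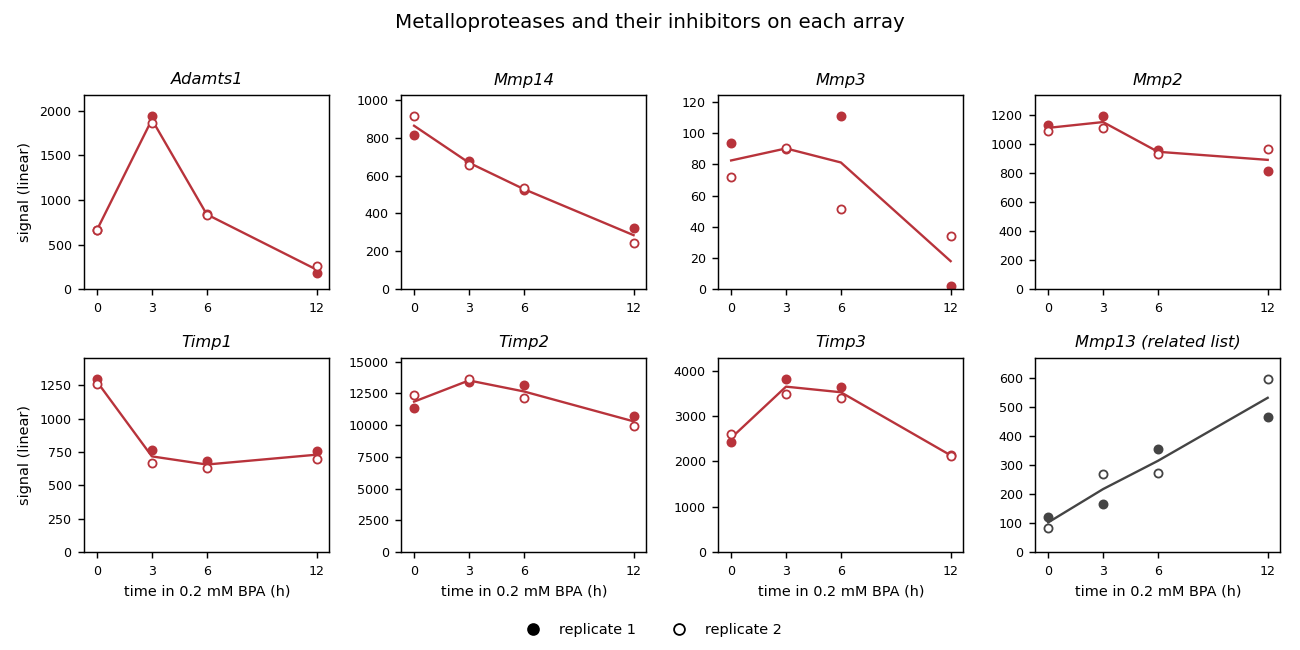
Linear probe set signal of 7 proteases and inhibitors and of Mmp13 against time in 0.2 mM BPA (h), with 1 point per array and a line through the means of the 2 arrays. Adamts1 peaks at 3 h and is lowest at 12 h, Timp1 drops by 3 h, Timp3 is highest at 3 and 6 h, and Mmp13 is highest at 12 h.

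Other genes of the same pathways, taken from lists by function, also had more falls than rises at 12 h, against the same shares of all genes as above. These lists too were chosen with earlier results of these data known, so their counts are descriptions and not independent support. Of 20 tested of 38 other structural matrix genes, 8 fell and 0 rose, with a median log2 change of -0.33. The 5 with the largest falls were Ecm1 (-1.28 ± 0.11 log2, adjusted p = 2.16e-06), Ogn (osteoglycin, -1.17 ± 0.29, adjusted p = 0.00643), Efemp1 (fibulin 3, -0.95 ± 0.17, adjusted p = 0.000692), Matn2 (matrilin 2, -0.79 ± 0.21, adjusted p = 0.0103) and Tnxb (tenascin X, -0.77 ± 0.27, adjusted p = 0.0389). Of 14 tested of 18 other collagen processing genes, 4 fell and 1 rose, with a median of -0.20. Those that fell were P3h4 (-1.32 ± 0.14, adjusted p = 1.13e-05), Crtap (-1.12 ± 0.19, adjusted p = 0.000428) and P3h1 (-0.80 ± 0.22, adjusted p = 0.011), of which Crtap and P3h1 form the prolyl 3-hydroxylase complex, and Pcolce, the procollagen C-proteinase enhancer (-0.85 ± 0.11, adjusted p = 7.92e-05). P4ha1, a catalytic subunit of prolyl 4-hydroxylase, rose (0.63 ± 0.14, adjusted p = 0.00244).

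Of 20 tested of 29 other matrix proteases and inhibitors, 6 fell and 1 rose at 12 h, with a median log2 change of -0.35. Mmp11 (stromelysin 3) had signals of 827 and 753 at 0 h, 564 and 484 at 3 h, 248.5 and 225.5 at 6 h, and 128 and 131 at 12 h. They were lower at each later time, with a log2 change of -2.54 ± 0.16 at 12 h (adjusted p = 8.75e-08). Mmp13 (collagenase 3) ran the other way, with signals of 120.1 and 84.6 at 0 h, 166 and 268.5 at 3 h, 355 and 274 at 6 h, and 467 and 596.5 at 12 h and a log2 change of 2.30 ± 0.25 at 12 h (adjusted p = 1.41e-05). Adamts5 (aggrecanase 2), Adam10 (a membrane sheddase) and Plaur (the urokinase receptor) fell, with log2 changes of -1.56 ± 0.22 (adjusted p = 9.82e-05), -0.69 ± 0.14 (adjusted p = 0.00138) and -0.53 ± 0.18 (adjusted p = 0.0321).

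Several matricellular genes also rose at 3 h. Of 7 tested of 9, 3 rose at 3 h (Thbs1, Ccn1 and Ccn2), beside 8.55% of all genes, and 2 fell at 12 h (Thbs1 and Ccn2), beside 17.5%. The median log2 change was 1.05 at 3 h and -0.24 at 12 h. The 3 h median was the value of Tgfbi, which was not called (adjusted p = 0.173). Tgfbi had signals of 44.1 and 34.5 at 0 h and 79.6 and 100.3 at 3 h. Ccn5, also not called (adjusted p = 0.106), had 22.8 and 34.8 at 0 h and 56.8 and 113.0 at 3 h. Both were low at 0 h, so that median is uncertain. Ccn2 (connective tissue growth factor) had signals of 1959 and 1596 at 0 h, 5755.5 and 5343 at 3 h, 1977 and 1673 at 6 h, and 519 and 484 at 12 h. Its arrays were highest at 3 h and lowest at 12 h, with log2 changes of 1.64 ± 0.13 at 3 h (adjusted p = 2.23e-06) and -1.80 ± 0.13 at 12 h (adjusted p = 3.82e-07). Thbs1 (thrombospondin 1) had signals of 3769 and 3925 at 0 h, 5282 and 5078 at 3 h, 2419 and 2755 at 6 h, and 616 and 617 at 12 h, with log2 changes of 0.43 ± 0.11 at 3 h (adjusted p = 0.0197) and -2.63 ± 0.11 at 12 h (adjusted p = 2.8e-09). Ccn1, chosen after its values were seen, had log2 changes of 1.76 ± 0.12 at 3 h (adjusted p = 4.9e-07) and 0.05 ± 0.12 at 12 h (adjusted p = 0.778). Of 16 tested of 18 genes of transforming growth factor beta signalling, 5 fell and 1 rose at 12 h, with a median of -0.22. The ligand Tgfb3, the receptors Tgfbr1, Tgfbr2 and Tgfbr3 and the latency protein Ltbp1 fell, with log2 changes of -1.48 ± 0.33, -0.76 ± 0.18, -1.07 ± 0.12, -1.18 ± 0.33 and -0.59 ± 0.16 (adjusted p between 2.43e-05 and 0.0112). The signal transducer Smad2 rose (0.46 ± 0.12 log2, adjusted p = 0.00714).

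Other probe sets of the same genes differed in the size of the change, and some in the call. The array carries 77 probe sets for the 39 genes, and 27 genes have several. Tested singly over 14266 probe sets, in a fit chosen after seeing the data, 61 of the 77 were tested, of which 36 fell and 0 rose at 12 h, beside 16.9% of all probe sets that fell. These 36 belong to 26 of the genes. The fibrillar collagens differed between probe sets by more than their standard errors. Col3a1 had log2 changes of -1.38 ± 0.13 and -2.73 ± 0.18 at 12 h, both past the threshold. Col5a1, at -0.24 ± 0.13 by its brightest probe set (adjusted p = 0.169), had -1.43 ± 0.23 by another (adjusted p = 0.000545), whose signals were 105.1 and 113.4 at 12 h against 290.1 and 327.9 at 0 h. Timp2 had 5 tested probe sets with log2 changes of -1.04 to -0.11, of which 3 fell. Hspg2 and Lox each had a further probe set that fell, at -0.59 ± 0.17 (adjusted p = 0.0183) and -0.73 ± 0.25 (adjusted p = 0.0385), and so did Mmp2, at -0.38 ± 0.13 (adjusted p = 0.0431), and Timp3, at -0.38 ± 0.12 (adjusted p = 0.0251). Conversely, 4 genes that fell had a further probe set that did not pass the test, namely Plod2 at -0.27 ± 0.24 (adjusted p = 0.43), Lama5 at -0.16 ± 0.25 (adjusted p = 0.672), Lamb1 at 0.02 ± 0.41 (adjusted p = 0.977) and Serpinh1 at -0.04 ± 0.13 (adjusted p = 0.853). With the mean of all probe sets of a gene, the 6 h calls of Col1a1 (adjusted p = 0.157) and Lamc1 (0.204), the 3 h call of Timp3 (0.0716) and the 12 h calls of Lama5 (0.187) and Serpinh1 (0.136) were lost. Of the tested genes, 8 were read by probe sets that can bind several transcripts (Col1a2, Col3a1, Col6a2, Col18a1, Lamb1, Fbln1, Fbln2 and Serpinh1) and are uncertain to that degree.

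**Figure D5:**
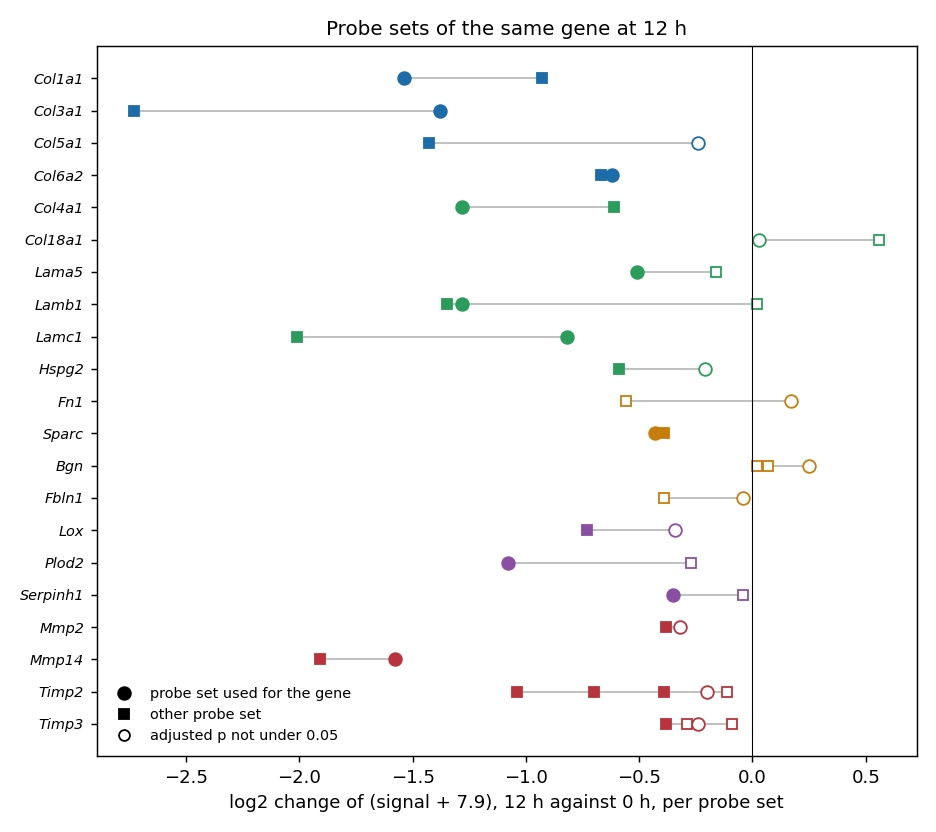
Log2 change of (signal + 7.9) at 12 h against 0 h for each singly tested probe set of the 21 genes with more than 1, circles being the probe set used for the gene and squares the others, filled where the adjusted p is under 0.05, coloured by role as in the plot of changes at 12 h. No filled point lies right of 0, and Col3a1, Col5a1, Lamb1, Lamc1 and Timp2 spread over wide ranges.

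Markers of cell types were read on the same arrays. The summed signal of the 15 Sertoli markers was 6177.2 to 7343.0 at 12 h, against 10733.8 to 11045.6 at 0 h, most of it from Clu (clusterin), whose signals were 3089 and 3729 at 12 h and 7747 and 7554 at 0 h. Of the 9 Sertoli markers tested, Clu (-1.17 ± 0.11 log2, adjusted p = 5.41e-06) and Inhbb (-0.99 ± 0.18, adjusted p = 0.000832) fell at 12 h, and Sox9 (1.55 ± 0.36, adjusted p = 0.00391) and Gata4 (0.50 ± 0.14, adjusted p = 0.0154) rose. Of all genes tested, 17.5% fell and 20.9% rose. The other 5 Sertoli markers did not pass the test, among them Wt1 at -0.67 ± 0.26 (adjusted p = 0.0595), with both 12 h arrays below both 0 h arrays. Sox9 had low signals at 0 h, 26.2 and 60.9, against 147.4 and 122.3 at 12 h. Those at 0 h lay within the range of the Sertoli markers that did not pass the filter (0.4 to 75.1). The summed signal of 5 fibroblast markers was 330.2 to 388.5 at 12 h, against 1581.9 to 1708.7 at 0 h. That sum was mostly S100a4, whose signals were 216 and 199.8 at 12 h and 1639 and 1417 at 0 h (-2.83 ± 0.14 log2, adjusted p = 1.6e-08), while the other 4 (Pdgfra, Pdgfrb, Thy1 and Tcf21) had 3.6 to 79.0 on all arrays. The 5 peritubular myoid markers summed to 243.5 to 278.3 at 12 h, against 213.7 to 286.9 at 0 h. Macrophage markers summed to 556.2 to 627.9 at 12 h, against 548.3 to 615.9 at 0 h, and endothelial markers to 184.5 to 218.9, against 129.6 to 151.5. Leydig markers summed to 470.2 to 551.7 at 12 h, against 470.0 to 470.5 at 0 h, and germ cell markers to 145.5 to 154.8, against 127.5 to 130. Of those measured, 1 of 4 endothelial, 1 of 4 Leydig and 1 of 5 germ cell markers passed the filter on low signals. These were Kdr (0.26 ± 0.34 log2, adjusted p = 0.591), Star (0.08 ± 0.15, adjusted p = 0.714) and Prm1 (-0.51 ± 0.44, adjusted p = 0.396). None of them passed the test at 12 h. The higher endothelial and germ cell sums at 12 h rest in part on low signals and are uncertain. The part of these markers in the matrix results was not tested.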

How the data were processed

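The authors deposited, for every array, a linear intensity of each probe set; the summary software is not given in the sources used here. The deposited intensities had been scaled, as the values show: the mean without the top and bottom 2% of probe sets was 499.96 on every array. Scaling of this kind hides any change of total RNA. Detection calls were not used, so an offset and a filter took care of low signals.

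The table has 22690 probe sets. Without its 64 controls, 20380 had 1 gene symbol in the platform annotation, 691 several and 1555 none. Symbols of 20351 were updated through Entrez identifiers to the RefSeq gene table of GRCm38.p6, and 29 kept the annotated symbol. Each of 12393 genes was read by its brightest probe set (mean log2 signal). Signals were transformed to log2(signal + 7.9), where 7.9 is the 10th percentile of the whole table, and genes with a mean above the 30th percentile were tested (8675 kept, 3718 removed). Changes on this scale understate those of low genes.

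A linear model with 1 mean per time over all 8 arrays was fitted with limma 3.58.1 in R 4.3.3 (lmFit, eBayes with an intensity trend, 4 residual and 9 prior degrees of freedom). Two-sided p-values were adjusted by Benjamini-Hochberg over all 8675 genes, and a gene was called at an adjusted p under 0.05. On simulated data for 12 h against 0 h over 8675 genes, with 200 genes changed in each of 10 runs, the procedure found 67% of 2-fold and 90.9% of 4-fold changes, and 4.43% of its calls were false. The simulated arrays were independent, which the 2 arrays of a time may not be. Far fewer genes were changed in them than the 1521 called lower and 1810 called higher at 12 h. These rates therefore need not hold for the data. The number of arrays limits the precision.

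The members and all gene lists were chosen with earlier results of these data known, so counts over them are descriptions. Every array's signals were given for up to 5 genes per role group, ranked by size of change. These had an adjusted p under 0.05 at 12 h. Genes called only at 3 or 6 h or against their group were added. Of the lists of other matrix and signalling genes, up to 5 called and 3 called the opposite way were named. A further list, a check of ATF4 targets outside the matrix, held Chac1, Ddit3 and Atf4. All 3 rose at 12 h, with log2 changes of 3.86 ± 0.13, 3.47 ± 0.11 and 1.99 ± 0.11 (adjusted p up to 2.88e-08). Further arrays printed (such as those of Col1a2, Col5a1, Col5a2, Nid1, Fn1, Mmp2, Timp2, Ccn2 and Thbs1) were added after their values were seen. Promoters came from RefSeq (GRCm38.p6) and were searched with pandas 2.3.3 in Python 3.11.15. Protein sequences were not analysed here.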

Additional observations from a re-analysis of the deposited data

How the results depend on the processing

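At 12 h against 0 h, the number of genes called stayed within 1.5 times 20 under every alternative run (16 to 21 when single arrays were left out), and 15 of the 20 calls held under all of their alternatives. Of 11 calls at 6 h, 4 held under all, and of 4 at 3 h, 2 did. Leaving out single arrays gave 2 to 4 calls at 3 h (2 without the first array at 0 h or at 3 h), 7 to 11 at 6 h (7 without the second array at 0 h), 1 to 2 for 6 h against 3 h, 7 to 9 for 12 h against 6 h and 10 to 22 for 12 h against 3 h. The calls of 6 h against 3 h were 2 in the fit reported, 0 without limma's intensity trend, and 4 with the replicate number as a block; those of 12 h against 6 h were 8, and 5 without the trend.

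The members' median log2 change at 12 h, -0.62, was -0.64 with quantile normalization, -0.63 with arrays scaled to the same median, -0.61 with 4 times the offset, -0.65 with the filter at the 50th percentile, -0.67 with the mean of all probe sets, and -0.63 to -0.57 without single arrays. The collagens' median, -0.71, was -1.02 with the mean of all probe sets. That of the glycoproteins and proteoglycans, -0.23, was -0.43 with the filter at the 50th percentile and -0.38 to -0.21 without single arrays, and that of the proteases and inhibitors, -0.80, was -0.56 with that filter, which tests fewer genes. With the mean of all probe sets the log2 change of Col5a1 at 6 h was -0.93 (adjusted p = 0.0176), against 0.02 with its brightest probe set, since its other 2 probe sets were lower. The labels do not say whether arrays with the same replicate number belong together. Deviations of such arrays from their time means correlated at -0.008 to 0.049 over all probe sets. With 2 arrays a time this cannot exclude a pairing, and the block is given as an alternative. The search of protein sequences planned for these genes was not run. Genes near the floor, such as Mmp3, Col1a2 and Col18a1, have the widest errors, and no dim probe set can be called absent.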
